A study of Homo sapiens with 4 samples.

Results

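The 45 genes described here encode the proteins that take a human cell into mitosis, build and move along the spindle, separate the chromosomes and divide the cell. They were chosen by function, and a counted region was given to one of them when the deposited annotation named that gene as the nearest one. The 2 count tables hold 27574 gene names in all, and each of the 45 genes had at least 1 read. RNA came from NCI-H1944, an established human lung adenocarcinoma cell line labelled WT. The groups were MPS1i J2, DMSO J2, MPS1i Input and DMSO Input, with 1 library in each. MPS1i cells received 100 nM BAY-1217389, an inhibitor of the checkpoint kinase MPS1 (encoded by TTK), for 48 h and were then grown for 24 h without drug. DMSO cells went through the same 48 h and 24 h with solvent only. J2 libraries hold RNA recovered with the J2 antibody, which recognises RNA duplexes, and Input libraries hold total RNA from 10% of the same lysate.

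Genes of this kind are transcribed in a wave that peaks late in the cell cycle. Between waves they are held down by the DREAM complex, in which the MuvB core sits on promoters, and in the late phase MuvB joins B-MYB and FOXM1 to switch them on. Many of their promoters carry the cell cycle genes homology region (CHR), a short element read by MuvB, and CCAAT boxes, which are bound by the factor NF-Y. Cultures with fewer dividing cells hold less of this RNA, and in bulk samples fewer cells expressing a gene and less RNA per cell cannot be told apart.

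RefSeq promoters of build GRCh38.p14, each running from 250 bases upstream to 50 bases downstream of a start site, were at hand for 38 of the 45 genes. The CHR letters TTTGAA or TTCGAA, searched on both strands, occurred in at least 1 promoter of 29 of the 38 genes (76.3%), against 19.5% of the 27305 genes with a promoter in the table. CCAAT, searched on both strands, occurred in 32 of the 38 (84.2%), against 39.7% of all genes, and both motifs occurred in 25 of the 38 (65.8%), against 7.85%. Matches of the 2 motifs can overlap by at most 1 letter. Windows of 8 promoters follow, a selection in which TTTGAA lies on the gene's own strand a short way upstream of the start site. They are written 5′ to 3′ along the gene's strand, with 1 CHR match per window in capitals. The HMMR window holds a further TTTGAA directly after the marked one, beginning at -22 from the start site and left in lower case.
CCNB2: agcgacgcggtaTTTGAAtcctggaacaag
CDC25C: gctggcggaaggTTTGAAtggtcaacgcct
PLK1: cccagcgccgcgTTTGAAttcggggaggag
MKI67: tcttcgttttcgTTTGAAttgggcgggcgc
NCAPG: tcgcgggaattaTTTGAAcgttcgagcggt
HMMR: aatgtggggagaTTTGAAtttgaaaccggt
KIF4A: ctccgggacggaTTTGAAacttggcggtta
ESPL1: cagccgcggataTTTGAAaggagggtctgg

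The windows lie in GRCh38.p14 at chr15:59105105-59105134 (+ strand) for CCNB2, chr5:138331817-138331846 (- strand) for CDC25C and chr16:23678848-23678877 (+ strand) for PLK1. MKI67 has its window at chr10:128126435-128126464 (- strand), NCAPG at chr4:17810932-17810961 (+ strand) and HMMR at chr5:163460592-163460621 (+ strand). For KIF4A the window is chrX:70290058-70290087 (+ strand), and for ESPL1 it is chr12:53268256-53268285 (+ strand). Counted from the start site, with upstream positions negative, the motif begins at -29 in CCNB2, PLK1 and MKI67, at -28 in HMMR, at -30 in CDC25C, at -31 in ESPL1, at -34 in KIF4A and at -35 in NCAPG. In all 8 the central letters are the same because they were searched for, and the flanks differ from gene to gene. The similar positions come from the selection of windows. TTTGAA on the own strand also began at -10 in INCENP and KIF18A and at -13 in CDK1. It began at -20 in ANLN and PRC1 and at -55 in KIF23. A CHR beginning anywhere from 60 bases upstream of a start site to the end of the window downstream of it was found in 24 of the 38 genes (63.2%), against 6.75% of all genes. No CHR letters were in these windows for AURKB, CCNA2, CCNB1, CKAP2, KIF20A, KIF2C, NCAPH, NEK2 and PTTG1. A match describes the letters and is not evidence of binding.

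The libraries held 6697479 reads (MPS1i J2), 9793355 (DMSO J2), 4844956 (MPS1i Input) and 6381610 (DMSO Input). Counts are therefore compared as CPM, reads scaled to a common library total, and ratios are log2 ratios of CPM with 0.5 added to each count. A gene counts as measured at 50 or more reads in the libraries compared, and is called higher or lower when the ratio is at least 2-fold and its exact 95% counting interval excludes 1. With 1 library in a group there is no test between conditions, and intervals cover counting error only. Fewer regions were covered after MPS1i, 484849 against 940751 with a read in Input and 1176736 against 1208576 in J2. Lung epithelial markers summed to 832 CPM in MPS1i Input and 512 CPM in DMSO Input over their gene bodies, with KRT19, SFTPB and NKX2-1 at 0. Over gene bodies, fibroblast markers summed to at most 0.413 CPM and leukocyte markers to at most 4.75 CPM in any library. By nearest gene name, fibroblast markers summed to 18.6 CPM in MPS1i Input and 4.54 CPM in DMSO Input. In J2 they summed to 19.4 CPM in MPS1i and 4.19 CPM in DMSO. Leukocyte markers summed to at most 25.1 CPM by nearest gene name, in MPS1i J2.

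The nearest-gene sums do not hold only the gene's own transcript. Of the reads named for the 45 genes, 50.1% in MPS1i J2 and 54.0% in DMSO J2 lay inside the gene on its own strand, as did 43.7% in MPS1i Input and 56.4% in DMSO Input. Reads on the own strand but outside the gene made up another 35.1% of MPS1i J2, 32.0% of DMSO J2, 36.3% of MPS1i Input and 28.5% of DMSO Input. The remainder lay on the opposite strand. For this reason a second sum, here called the gene-body sum, is given beside the first: it takes every region that overlaps exactly 1 annotated gene (GENCODE 29) on that gene's strand. NUSAP1 and PRC1 have no gene-body sum, because each of their regions also overlaps another annotated gene on the same strand.

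**Figure D1:**
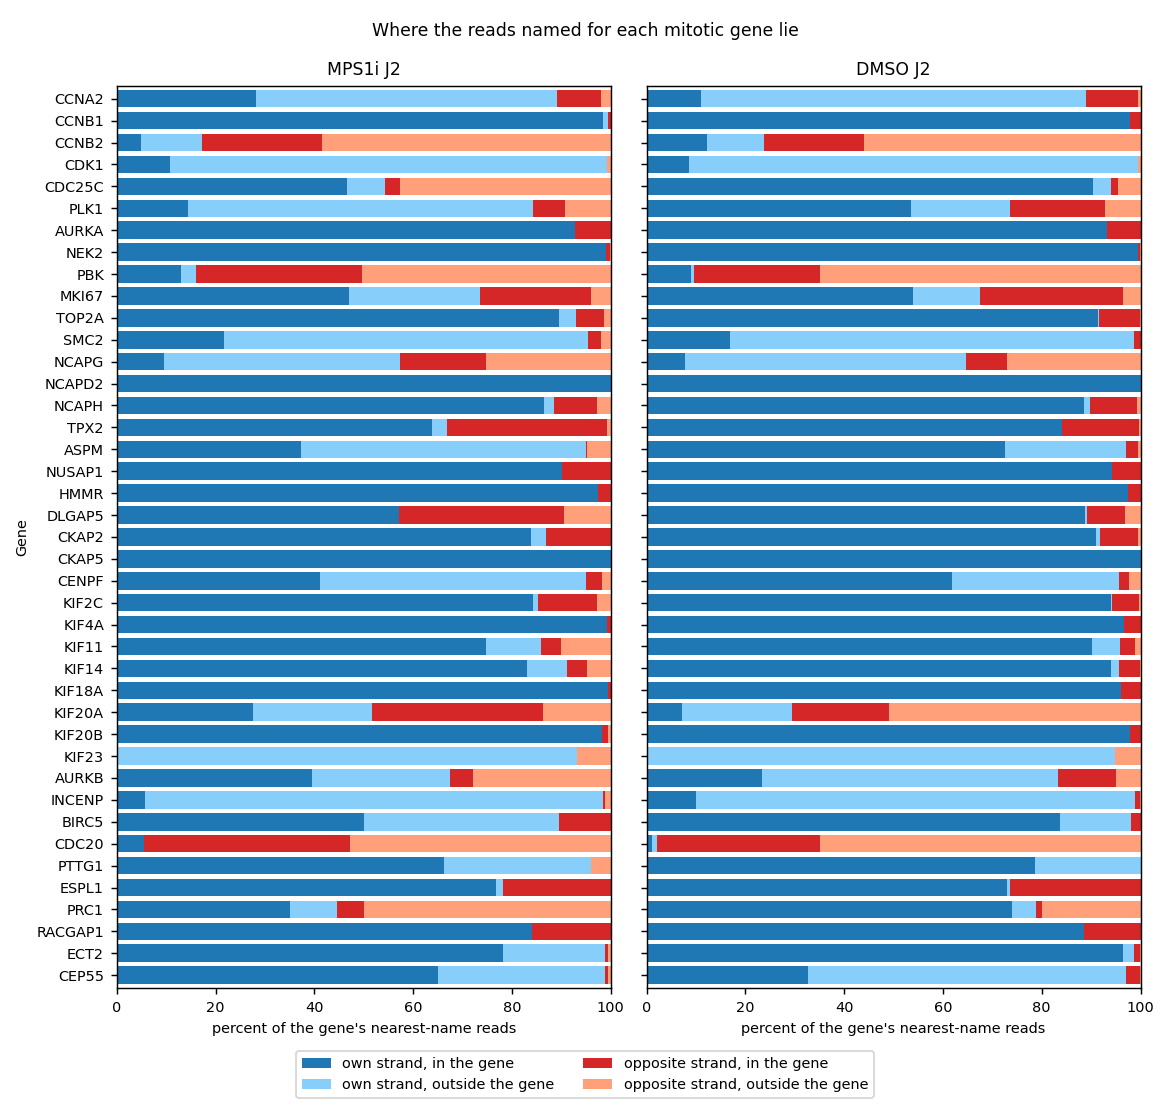
Horizontal stacked bars give, for each gene with 50 or more nearest-name reads in J2, the percent of those reads in 4 places relative to the annotated gene, in MPS1i J2 (left) and DMSO J2 (right). KIF23 has no read inside its gene under the nearest-name rule, while CKAP5 and NCAPD2 have all of theirs inside the gene on its strand.

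The places differed sharply between genes. KIF23 had none of its 1657 MPS1i J2 and 3884 DMSO J2 nearest-name reads inside the gene, and 46.2% of the DMSO J2 reads lay in the neighbouring gene PAQR5. PBK drew 81.3% of its DMSO J2 reads from the neighbouring gene ESCO2, on the opposite strand. CCNA2 drew 78.1% from BBS7. CDK1 drew 91.5% of its DMSO J2 reads from ground that is not part of a single annotated gene, almost all of it downstream on its own strand. At the other end, 99.4% of the MPS1i J2 reads and 96.0% of the DMSO J2 reads of KIF18A lay inside that gene on its strand.

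After MPS1i the mitotic genes were lower in total RNA. By nearest name, 19 of the 42 measured genes were called lower in MPS1i Input than in DMSO Input (8.93% of all 16980 measured gene names were) and 0 were called higher (20.1% of all). Their median ratio was -0.97, against 0.08 over all gene names, and 40 of the 42 lay below 0, against 46.4% of all. By gene body, 24 of 41 were lower (16.5% of all 10167 measured genes) and 0 were called higher (12.7% of all), at a median of -1.19, against -0.22 over all genes. Summed over the gene bodies, the members had 5675 reads in MPS1i Input and 15805 in DMSO Input, a ratio of -1.08 with an interval of -1.12 to -1.04. The same sum over all genes gave -0.15.

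In J2-bound RNA the direction was the same. By nearest name, 15 of 41 measured genes were called lower in MPS1i J2 than in DMSO J2 (11.8% of all 18219 gene names) and 0 higher (25.4% of all), with a median of -0.74, against 0.16 over all names. By gene body, 19 of 39 were lower (19.4% of all 11184) and 0 higher (15.9%), with a median of -0.93, against -0.19. The summed gene bodies held 15221 reads in MPS1i J2 and 35183 in DMSO J2, a ratio of -0.66 (-0.69 to -0.63), against -0.26 over all genes. ECT2 alone, at a ratio of 0.12, gave 4703 of these reads in MPS1i J2 and 6334 in DMSO J2. The sum therefore leans on that gene, and its interval covers counting error only. Of the 39 genes measured by gene body in both kinds of RNA, 14 were called lower in both. They were ASPM, CCNB1, CCNB2, CKAP2, CKAP5, DLGAP5, INCENP, KIF11, KIF23, KIF4A, PLK1, RACGAP1, TOP2A and TPX2. By nearest name the 10 of 41 called lower in both were AURKA, BIRC5, CCNB1, CKAP2, DLGAP5, KIF20A, KIF4A, NCAPD2, TOP2A and TPX2. The 6 genes on both lists are CCNB1, CKAP2, DLGAP5, KIF4A, TOP2A and TPX2. How many of all genes were called lower in both was not counted, so these joint counts name genes only.

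Other scalings moved all gene names and the mitotic genes together. TMM factors shifted the median of all names by -0.25 in Input, to -0.18, and by -0.37 in J2, to -0.20. Over all names 15.6% were then called lower and 15.8% higher in Input, and 21.8% lower and 19.2% higher in J2. Of the mitotic genes 27 of 42 were called lower in Input and 22 of 41 in J2, with 0 higher in either, and 38 of the 41 J2 ratios lay below 0, against 34 by library total. Counting each region at most once per library left 26 mitotic genes measured in Input, of which 6 were lower (9.01% of all names), and 31 in J2, of which 3 were lower (7.56% of all names). The J2 share is near that of all names, and AURKA and TOP2A then lay just above 0 in J2 (0.0921 and 0.0387).

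**Figure D2:**
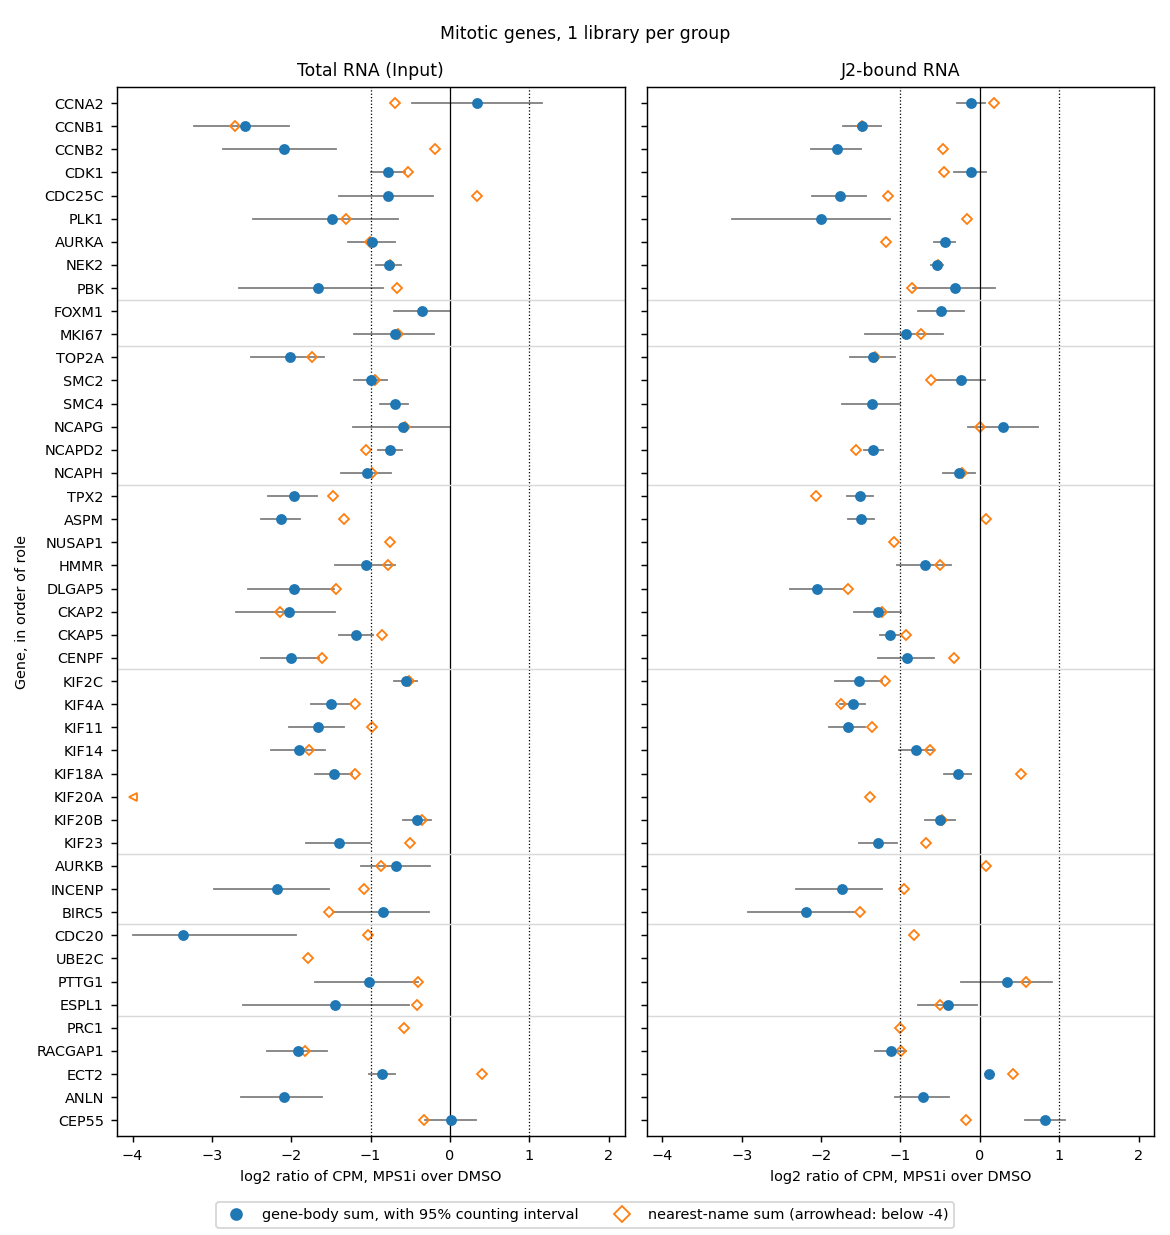
Log2 ratio of CPM, MPS1i over DMSO, for each of the 45 genes in order of role, in total RNA (left) and J2-bound RNA (right). Filled circles are gene-body sums with their 95% counting interval, open diamonds are nearest-name sums, and dotted lines mark 2-fold. An arrowhead near the left edge stands for KIF20A, whose nearest-name Input ratio lies beyond the axis because it had 0 reads in MPS1i Input. Nearly all points in Input lie left of 0.

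Among the cyclins and kinases of mitotic entry, 4 of 9 gene bodies were called lower in Input (16.5% of all genes) and 4 of 9 in J2 (19.4%). In either, 0 were called higher (12.7% of all in Input and 15.9% in J2). Each role holds few genes, so its counts can differ from these shares by little. CCNB1, the cyclin that activates CDK1 at entry, had 29 nearest-name reads in MPS1i Input and 253 in DMSO Input, a ratio of -2.71 (-3.34 to -2.17). In J2 it had 189 reads in MPS1i and 776 in DMSO, a ratio of -1.49 (-1.73 to -1.26). The gene-body sums of CCNB1 were close to these, 28 against 224 reads in Input and 186 against 760 in J2, and 66.5% of the J2 reads came from 1 region. CCNB2, its partner cyclin, showed how far the nearest-name sum can depart. That sum held 1056 reads in MPS1i Input and 1590 in DMSO Input, a ratio of -0.19, with 69.0% of the MPS1i reads on the opposite strand outside the gene. Its gene body had 21 reads in MPS1i Input and 120 in DMSO Input (-2.09, -2.86 to -1.44), and 101 reads in MPS1i J2 and 518 in DMSO J2 (-1.80, -2.13 to -1.50).

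PLK1, the polo-like kinase that acts at centrosomes and kinetochores, had 66 nearest-name reads in MPS1i Input and 216 in DMSO Input (-1.31). In J2 it had 76 reads in MPS1i and 125 in DMSO (-0.17), and 53 of the MPS1i reads, against 25 of the DMSO reads, lay on its strand outside the gene. Inside the gene PLK1 had 11 reads in MPS1i J2 and 67 in DMSO J2, a ratio of -2.01 (-3.13 to -1.13). CDC25C, the phosphatase that removes the inhibitory mark from CDK1, was called lower in J2 and not in Input. Its nearest-name sum was 103 reads in MPS1i J2 and 336 in DMSO J2 (-1.15), and 106 in MPS1i Input and 110 in DMSO Input (0.34). By gene body the ratios of CDC25C were -1.76 in J2, which was called, and -0.78 in Input, which was not.

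The other kinases were lower by less than 2-fold or were called by 1 measure only. CDK1, the kinase that drives mitosis, had 259 gene-body reads in MPS1i Input and 586 in DMSO Input (-0.78), and 334 in MPS1i J2 and 530 in DMSO J2 (-0.12). NEK2, a centrosome kinase, had 470 against 1060 reads in Input (-0.78) and 2156 against 4577 in J2 (-0.54). AURKA, the aurora kinase of spindle poles, was called lower by nearest name in Input (-1.01) and J2 (-1.18), while its gene body gave -0.99 and -0.44 and was not called. PBK, a mitotic kinase, was called lower by gene body in Input, with 14 reads in MPS1i and 60 in DMSO (-1.66). CCNA2, the cyclin of S phase and early mitosis, was not called in either, with 27 against 28 gene-body reads in Input and 459 against 725 in J2. A single region held 94.4% of the CCNA2 reads in J2, and the regions of that sum cover 16.9 kb while the gene is 7.49 kb long, so they reach beyond the gene.

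FOXM1, the transcription factor that activates many of these genes, had too few nearest-name reads to be measured. Over its gene body it had 107 reads in MPS1i Input and 180 in DMSO Input (-0.35), and 146 in MPS1i J2 and 299 in DMSO J2 (-0.48), and neither was called. MKI67, which coats mitotic chromosomes and serves as a proliferation marker, had 50 gene-body reads in MPS1i Input and 107 in DMSO Input, and 48 in MPS1i J2 and 135 in DMSO J2. It had gene-body ratios of -0.69 in Input and -0.93 in J2, again not called.

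Of the 6 genes of chromosome condensation, 2 gene bodies were called lower in Input (16.5% of all genes) and 3 in J2 (19.4%). In either, 0 were called higher (12.7% and 15.9% of all). TOP2A, the topoisomerase that untangles sister chromatids, had 64 nearest-name reads in MPS1i Input and 282 in DMSO Input (-1.73), and 143 in MPS1i J2 and 525 in DMSO J2 (-1.32). Its gene body gave -2.02 in Input and -1.34 in J2. NCAPD2, a condensin subunit, had 164 nearest-name reads in MPS1i J2 and 706 in DMSO J2 (-1.55, -1.81 to -1.31), the fourth-lowest J2 ratio by nearest name among the measured members. Its Input ratio was -1.06 by nearest name and -0.75 by gene body. SMC4, a core condensin subunit that could be measured only by gene body, had 393 against 841 reads in Input (-0.70) and 82 against 309 in J2 (-1.36). SMC2, its partner, had 264 against 696 reads in Input and 140 against 242 in J2 (-0.24), and neither was called. NCAPH was called lower by gene body in Input (-1.05) and NCAPG in neither (-0.59 and 0.29).

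By gene body the spindle assembly genes were the role with the most genes called lower. By nearest name they had 5 of 8 called lower in Input and 4 of 8 in J2, the latter equal to the kinesins. By gene body 7 of the 7 measured were called lower in Input (16.5% of all genes), with a median of -1.97. In J2 5 of the 7 were called lower (19.4% of all genes), with a median of -1.29. TPX2, which activates AURKA on spindle microtubules, had 127 nearest-name reads in MPS1i J2 and 776 in DMSO J2, a ratio of -2.06 (-2.35 to -1.79). Over its gene body TPX2 had 369 reads in MPS1i J2 and 1537 in DMSO J2 (-1.51), and 104 in MPS1i Input and 539 in DMSO Input (-1.97). DLGAP5, a microtubule-bundling protein, had 63 nearest-name reads in MPS1i J2 and 293 in DMSO J2 (-1.66), and its gene body gave -2.05 in J2 and -1.97 in Input. CKAP2, a spindle-associated protein, had 29 reads in MPS1i Input and 171 in DMSO Input by nearest name (-2.14, -2.78 to -1.59), and its J2 ratio was -1.23.

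CENPF, a large kinetochore protein, had 140 nearest-name reads in MPS1i Input and 564 in DMSO Input (-1.61), and 224 in MPS1i J2 and 412 in DMSO J2 (-0.33). ASPM, which acts at spindle poles, had 174 against 580 nearest-name reads in Input (-1.34) and 400 against 555 in J2 (0.08). Its gene body gave another J2 value, 365 reads in MPS1i and 1505 in DMSO (-1.49, -1.66 to -1.33). Of the nearest-name J2 reads of ASPM, 57.8% in MPS1i and 24.5% in DMSO lay on its strand outside the gene. CKAP5, a microtubule polymerase, was called lower by gene body in Input (-1.19) and J2 (-1.14), and HMMR, a spindle-pole protein, in Input (-1.06). NUSAP1, which stabilises spindle microtubules, was measured by nearest name alone and was lower in J2, with 253 reads in MPS1i and 785 in DMSO (-1.08).

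Kinesins are motors that move along microtubules. By gene body 5 of 7 were called lower in Input (16.5% of all genes) and 4 of 7 in J2 (19.4%). KIF4A, a chromosome-bound kinesin, had 134 nearest-name reads in MPS1i J2 and 658 in DMSO J2 (-1.74, -2.03 to -1.48), with -1.20 in Input. KIF11, the motor that pushes spindle poles apart, had 249 reads in MPS1i J2 and 939 in DMSO J2 (-1.36), and its gene body gave -1.67 in both Input and J2. KIF14, a kinesin of the midbody, had 104 reads in MPS1i Input and 472 in DMSO Input (-1.78), and in J2 it had 308 against 695 (-0.62), which was not called. KIF20A, another midbody kinesin, had 0 nearest-name reads in MPS1i Input and 88 in DMSO Input. Set against a floor of 3 counts per library, that is at least 22.3-fold lower. Only 22 of the 88 reads lay over the gene body, too few to measure, and against the same floor those are at least 5.57-fold lower. In J2 KIF20A had 29 reads in MPS1i and 112 in DMSO (-1.38), but only 8 and 8 reads lay over the gene body, too few to measure.

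KIF2C, which takes microtubule ends apart at kinetochores, was called lower in J2, with 117 gene-body reads in MPS1i and 493 in DMSO (-1.52), and not in Input, with 566 against 1098 (-0.56). KIF23, a subunit of the centralspindlin complex, had gene-body ratios of -1.40 in Input and -1.28 in J2, both called. KIF20B had -0.42 and -0.50, neither called. KIF18A, which limits chromosome movement at the metaphase plate, went in 2 directions by nearest name, with 66 reads in MPS1i Input and 200 in DMSO Input (-1.19) but 173 in MPS1i J2 and 177 in DMSO J2 (0.52). Its gene body was lower in Input, at 193 against 703 reads (-1.46), and at 433 against 769 reads it gave -0.28 in J2.

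**Figure D3:**
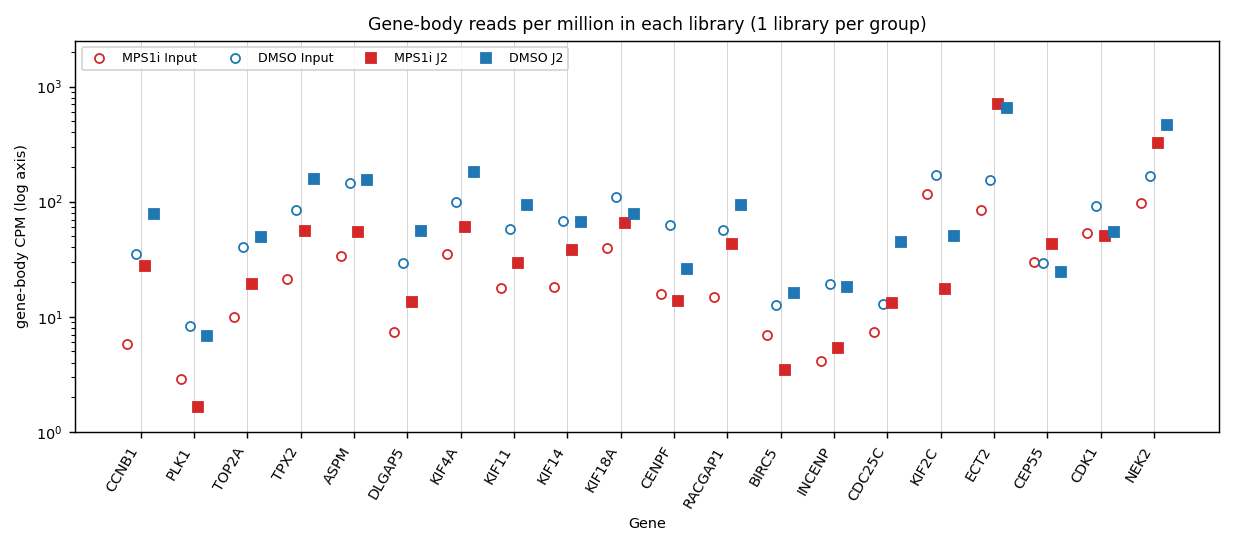
Gene-body CPM (log axis) of 20 of the genes in each of the 4 libraries, MPS1i in red and DMSO in blue, open circles for Input and filled squares for J2. Red lies below blue within most pairs; CEP55 and the J2 pair of ECT2 are the exceptions among the genes drawn, and levels are to be read within a gene only because gene length is not removed.

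The chromosomal passenger complex corrects faulty attachments and holds AURKB, INCENP and BIRC5 (survivin). BIRC5 had 38 nearest-name reads in MPS1i J2 and 160 in DMSO J2 (-1.51, -2.08 to -1.01), and 30 in MPS1i Input and 115 in DMSO Input (-1.52). Its gene body gave -2.20 in J2 and -0.84 in Input. INCENP, the scaffold of the complex, had 20 gene-body reads in MPS1i Input and 122 in DMSO Input (-2.18), and 36 in MPS1i J2 and 178 in DMSO J2 (-1.74). AURKB, its kinase, had 67 against 142 reads in Input (-0.68) and only 17 and 14 in J2.

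Genes of anaphase onset were thinly read. CDC20, the activator of the anaphase-promoting complex that the checkpoint restrains, had 3 gene-body reads in MPS1i Input and 47 in DMSO Input (-3.37, -5.90 to -1.94). Its nearest-name sum, with 54 reads in MPS1i Input and 146 in DMSO Input, gave a smaller difference (-1.03), and only 1 and 13 of those reads lay on the gene's own strand inside it. UBE2C, the ubiquitin-conjugating enzyme of that complex, had 13 nearest-name reads in MPS1i Input and 61 in DMSO Input (-1.79), while its gene body had only 6 and 12 reads. PTTG1 (securin) had 29 gene-body reads in MPS1i Input and 78 in DMSO Input (-1.01), and 51 against 59 in J2 (0.34). ESPL1, the protease separase that securin holds back, had 11 against 41 reads in Input (-1.45) and 92 against 178 in J2 (-0.40). The 3 measured gene bodies were thus called lower in Input (16.5% of all genes), and 0 of the 2 measured in J2 (19.4%).

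Among the cytokinesis genes RACGAP1, the other centralspindlin subunit, had 75 nearest-name reads in MPS1i Input and 351 in DMSO Input (-1.82, -2.21 to -1.47). In J2 it had 289 reads in MPS1i and 843 in DMSO (-0.99), and its gene body, at 289 against 919, was called lower there (-1.12). ANLN, a scaffold of the contractile ring, could be measured only by gene body, with 39 against 221 reads in Input (-2.09) and 101 against 244 in J2 (-0.72). PRC1, which bundles the central spindle, was lower in J2 by nearest name, with 128 reads in MPS1i and 377 in DMSO (-1.01). CEP55, which recruits the machinery that cuts the midbody, was not called by either sum, and its gene body was not lower. It had 144 gene-body reads in MPS1i Input and 189 in DMSO Input (0.01, -0.32 to 0.33), and 287 in MPS1i J2 and 238 in DMSO J2 (0.82, 0.57 to 1.07), under 2-fold. Its nearest-name sums also held reads that were not on its strand inside the gene, 67.4% of them in DMSO J2. Those reads went down, with 154 in MPS1i J2 and 492 in DMSO J2 (-1.12), and 100 and 216 in Input (-0.71).

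ECT2, the exchange factor that activates RhoA at the division plane, stood apart. Its gene body had 4703 reads in MPS1i J2 and 6334 in DMSO J2 (0.12, 0.06 to 0.17), but 411 in MPS1i Input and 979 in DMSO Input (-0.85). A pair of intronic regions held 73.4% of the MPS1i J2 reads and 68.4% of the DMSO J2 reads. The larger, chr3:172756383-172756983 (+ strand, GRCh38), lies in intron 4 and carries no annotated repeat. It had 2428 reads in MPS1i J2 and 3039 in DMSO J2, but 3 in MPS1i Input and 44 in DMSO Input over the overlapping regions. The other, chr3:172764500-172764992 in intron 12, overlaps an L2a element and had 1024 reads in MPS1i J2 and 1294 in DMSO J2, against 9 and 8 in the Inputs. Without these 2 regions, a comparison chosen after their values were seen, ECT2 had 1251 reads in MPS1i J2 and 2001 in DMSO J2 (-0.13).

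J2 over Input compares how much of a gene's RNA the antibody held back with how much was there. By nearest name, 12 of 40 measured genes were called higher in J2 than in Input within MPS1i cells (15.2% of all) and 5 lower (9.24%). The median was 0.54, against 0.26 over all names. Within DMSO cells 6 of 42 were called higher (16.9%) and 8 lower (10.8%), and the median was 0.34, against 0.29. By gene body, 13 of 39 were higher in MPS1i cells (18.8%) and 5 lower (9.52%), and 9 of 40 were higher in DMSO cells (20.2%) and 6 lower (10.3%). The regions behind the gene-body sums of the 45 genes cover 589 kb in the J2 table and 472 kb in the Input table. Leaving mitochondrial reads out of the library totals moved the median of all names by -0.31 in MPS1i cells and -0.39 in DMSO cells, so the counts higher and lower depend on that choice.

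Members spread widely on this ratio. CCNA2 had gene-body ratios of J2 over Input of 3.60 in MPS1i and 4.05 in DMSO cells, over 16.9 kb of J2 regions and 1.64 kb of Input regions. ECT2 had 3.05 in MPS1i and 2.08 in DMSO cells. NEK2 had 1.73 and 1.49, and AURKA 2.03 and 1.49. At the low end were AURKB, with -2.41 in MPS1i and -3.91 in DMSO cells, SMC4 with -2.72 and -2.06, KIF2C with -2.74 and -1.77, and SMC2 with -1.38 and -2.14. All 4 were called lower in J2 than in Input in either treatment by gene body, while the nearest-name sums of SMC2 gave 0.12 and -0.22.

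**Figure D4:**
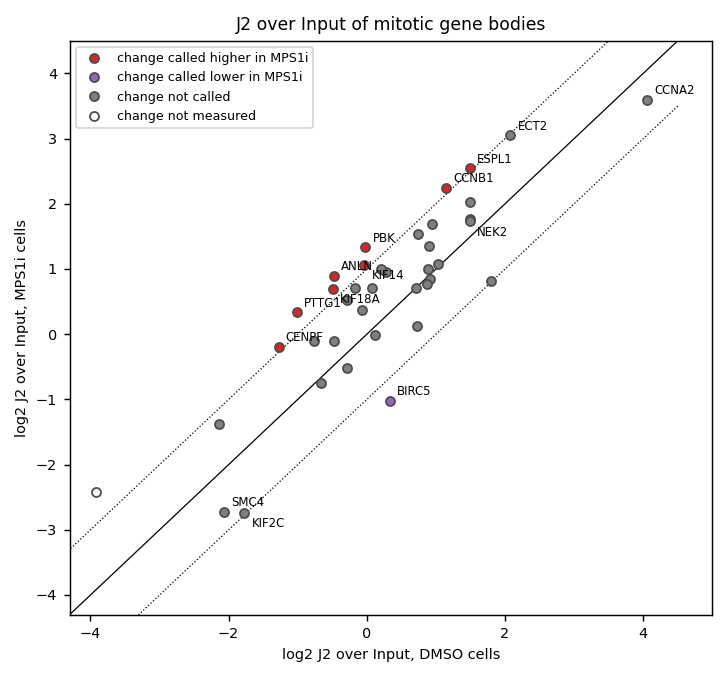
Log2 J2 over Input of gene-body CPM in MPS1i cells (vertical) and DMSO cells (horizontal), 1 point per gene measured in both. The solid line marks equal ratios and the dotted lines a 2-fold difference; the points called higher lie above the upper dotted line, BIRC5 lies below the lower one, and the unlabelled open point at the far left is AURKB, whose change was not measured.

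The change of J2 over Input, MPS1i over DMSO, was called higher for 7 of 41 genes by nearest name (8.75% of all 17915) and lower for 1 (6.16%), with a median of 0.12, against 0.01 over all names. The 7 were CCNB1 (1.22), PLK1 (1.14), ASPM (1.41), CENPF (1.28), KIF14 (1.15), KIF18A (1.71) and KIF20A, whose value rests on 0 reads in MPS1i Input. CDC25C was the one lower, at -1.50, while its gene body gave -0.98 (-1.64 to -0.33), just under 2-fold and not called. By gene body 8 of 39 were called higher (9.08%) and 1 lower (7.8%), and the median was 0.46, against -0.01 over all genes. These were CCNB1 (1.10), PBK (1.35), CENPF (1.08), KIF14 (1.10), KIF18A (1.19), PTTG1 (1.35), ESPL1 (1.05) and ANLN (1.37), and BIRC5 was lower at -1.35 (-2.20 to -0.50). Called by both measures were CCNB1, CENPF, KIF14 and KIF18A, all higher. In each of these 4 the gene body was called lower in Input. A change called higher means a J2 ratio above the Input ratio, so their smaller decrease in J2 restates the call. For KIF14 the interval of the change ran from 0.71 to 1.49 and for KIF18A from 0.90 to 1.47. PLK1 changed sign between the measures, with -0.52 by gene body, where only 11 MPS1i J2 and 14 MPS1i Input reads were counted.

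Single regions of the members show where the J2 reads lay. The most-read over both J2 libraries summed was chr1:211664073-211666390 (- strand, GRCh38), 2318 bases in intron 7 of NEK2 that overlap L2a and FAM elements. It had 1954 reads in MPS1i J2 and 4121 in DMSO J2 (-0.53), while in MPS1i J2 alone the ECT2 region of intron 4 had more. A region past the end of CDK1, chr10:60796377-60797784 (+ strand), overlaps AluJo and MIRb elements and had 653 reads in MPS1i J2 and 1522 in DMSO J2 (-0.67). Upstream of KIF23, chr15:69410154-69411409 (+ strand), outside the gene, had 491 reads in MPS1i J2 and 1207 in DMSO J2 (-0.75). Across the gene bodies the most-read region held a median of 24.6% of a gene's J2 reads, with a range of 6.90% to 94.4%, and a median of 17.3% of its Input reads.

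Among the 148 regions named for these genes with 50 or more J2 reads, the 4 with the largest increases were all past the end of ECT2. They began 31251, 43634, 44528 and 46182 bases beyond it, and the last 2 overlap LTR12C, a long terminal repeat of an endogenous retrovirus. Their reads were 52, 67, 63 and 97 in MPS1i J2, against 0, 1, 3 and 5 in DMSO J2. A region in intron 4 of TPX2, chr20:31765426-31766026 (+ strand), lay at the other extreme with 1 read in MPS1i J2 and 54 in DMSO J2 (-4.64).

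Reads on the gene's strand past its annotated end were then summed, in windows chosen after these values were seen. Over 50 kb past ECT2 there were 949 reads in MPS1i J2 and 126 in DMSO J2 (3.46), and 513 in MPS1i Input and 57 in DMSO Input (3.56). From 20 to 50 kb the J2 libraries held 589 reads in MPS1i and 21 in DMSO, and the Input libraries 365 and 4. The first 20 kb past CDK1 went the other way, with 2660 reads in MPS1i J2 and 5594 in DMSO J2 (-0.52), and 855 and 1583 in Input (-0.49). From 20 to 50 kb past CDK1, where reads were few, there were 72 in MPS1i J2 and 38 in DMSO J2 (1.46, 0.88 to 2.08), and 20 and 2 in Input (3.43, 1.68 to 6.86), the direction seen for ECT2. DLGAP5 had 168 against 740 reads in J2 (-1.59) and 48 against 207 in Input (-1.70) over its 20 kb, both called lower.

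**Figure D5:**
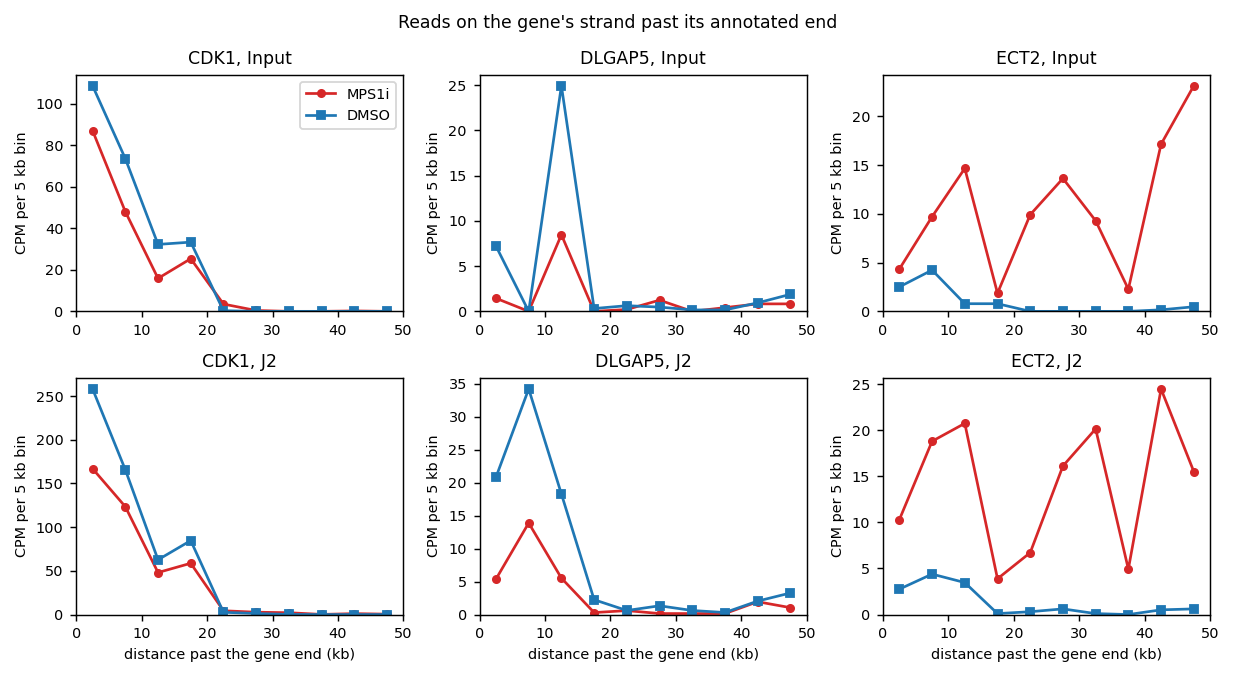
CPM in 5 kb bins along the gene's own strand, by distance in kb past the annotated end, for CDK1, DLGAP5 and ECT2 in Input (top) and J2 (bottom), MPS1i in red circles and DMSO in blue squares. For CDK1 and DLGAP5 the red line lies below the blue one over the first bins that hold most reads, and for ECT2 the red line lies above it in every bin.

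Over the 20 kb windows, ASPM had 147 reads in MPS1i J2 and 38 in DMSO J2 (2.49), and 60 and 24 in Input (1.70), the opposite of its gene body. TOP2A had 324 against 1327 reads in J2 (-1.48). Of the mitotic genes measured there, 4 of 19 were lower in Input (5.95% of all 3829 protein-coding genes measured) and 3 higher (28.7%), and 2 of 23 were lower in J2 (4.4% of all 5117) and 5 higher (34.4%). The median of the mitotic genes was -0.34 in Input and -0.36 in J2, against 0.35 and 0.49 over all genes.

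Repeats and exons were read in proportions of their own. Regions with an Alu held 25.1% of the members' gene-body reads in MPS1i J2 and 29.2% in DMSO J2, against 17.8% and 20.1% over all genes. FLAM, FRAM and FAM elements were counted as Alu here. The NEK2 region of intron 7, with L2a and FAM, gave 1954 of the members' 3818 such reads in MPS1i J2. In DMSO J2 it gave 4121 of 10282, so the members' J2 shares rest largely on 1 region. In Input the shares of Alu regions were 18.7% in MPS1i and 17.0% in DMSO, against 13.7% and 12.9% over all genes. Alu regions of the members were at -0.88 in J2 and regions without a repeat at -0.53, against -0.43 and -0.21 over all genes. In Input the order was not the same, with Alu regions of the members at -0.94 and regions without a repeat at -1.04, against -0.06 and -0.18 over all genes. The ECT2 region of intron 4 gave 2428 of the members' 7947 repeat-free reads in MPS1i J2. In DMSO J2 it gave 3039 of 16744. Both J2 ratios of the members therefore lean on single regions and do not describe a class of repeat across the genes. Regions overlapping an exon on the same strand held 42.5% of the members' reads in MPS1i J2 and 27.8% in DMSO J2, and 37.1% in MPS1i Input and 23.0% in DMSO Input, so most reads lay outside exons. Over all genes the exon shares were likewise higher after MPS1i, at 23.6% against 15.9% in J2 and 27.1% against 18.5% in Input. The number of the members' gene-body regions with a read was 680 in MPS1i Input and 2485 in DMSO Input, and 1494 in MPS1i J2 and 2331 in DMSO J2. Over all genes it was also lower after MPS1i, at 264408 against 677217 in Input and 626581 against 851770 in J2.

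Other genes of the same programme were looked at by gene body. Of 51 other G2/M genes, 25 of the 42 measured were called lower in Input and 0 higher (median -1.17), against 16.5% and 12.7% of all genes (median -0.22). In J2, 20 of 42 were called lower and 2 higher (median -0.97), against 19.4% and 15.9% of all genes (median -0.19). CIT, the citron kinase of cytokinesis, had 115 reads in MPS1i Input and 749 in DMSO Input (-2.30), and 213 in MPS1i J2 and 1333 in DMSO J2 (-2.09). CDC25A (-2.04), STIL (-1.95), TROAP (-1.91) and KNSTRN (-1.84) followed in Input. In J2 the lowest were LMNB1 (-2.19), CIT, BRCA1 (-2.07), ARHGAP11A (-1.98) and TROAP (-1.89). TTK, which encodes the drug's target, had 34 reads in MPS1i Input and 109 in DMSO Input (-1.27), and 238 in MPS1i J2 and 462 in DMSO J2 (-0.41).

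Of 13 DREAM and MuvB regulators, 4 of 11 measured were lower in Input and 0 higher, against the same 16.5% and 12.7% of all genes, and their median of -0.31 was close to the -0.22 of all genes. In J2, 5 of 11 were lower and 1 higher, against 19.4% and 15.9%, with a median of -0.72, against -0.19. RBL1 (p107) had 71 reads in MPS1i Input and 401 in DMSO Input (-2.09), and 207 in MPS1i J2 and 1524 in DMSO J2 (-2.33). LIN9, a MuvB subunit, had -1.72 in Input and -1.63 in J2. RBL2 (p130) and the E2F partner TFDP1 were lower in Input (-1.49 and -1.17). In J2 TFDP2 (-1.39) and the MuvB subunit RBBP4 (-1.37) were lower, and MYBL1, the A-MYB factor, was higher with 148 reads in MPS1i and 80 in DMSO (1.43).

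Members with and without CHR letters in their promoters were set side by side as a description. Of all measured genes, with or without the letters, 16.5% were called lower by gene body in Input and 19.4% in J2. Of the members with the letters, 17 of 27 measured gene bodies were lower in Input, with a median of -1.45. In J2 13 of 26 were lower, with a median of -1.04. Of those without, 4 of 8 were lower in Input, with a median of -0.89, and 3 of 7 in J2, with a median of -0.54. CCNB1 and CKAP2, called lower in both kinds of RNA, are among those without. Input ratios ran from -3.37 to 0.01 with the letters and from -2.58 to 0.35 without, so the groups overlapped. Genes outside the set were not split by the letters, and a link between the letters and the ratios was not tested.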

How the data were processed

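The 2 deposited tables hold raw read counts per stranded genomic region, 1 table for Input and 1 for J2. The build GRCh38 (hg38) and the tools HOMER, featureCounts, STAR, cutadapt, Trimmomatic and Trim Galore are named without versions per the submitters' processing notes. How regions were called, and how duplicate or multiply mapped reads were counted, is not given in the sources used here. Groups came from the sample titles. Counts of regions were summed per nearest gene name and, as an alternative, per gene of GENCODE 29 overlapped alone on its strand (bedtools 2.31.1). Regions without a gene name held 19.7% of MPS1i Input, 23.6% of DMSO Input, 0.883% of MPS1i J2 and 0.650% of DMSO J2 reads, nearly all mitochondrial in Input, and stayed in the library totals only. Ratios and exact Clopper-Pearson intervals were computed in Python 3.11.15 with scipy 1.17.1. The change of J2 over Input has a delta-method interval and was computed from 50 J2 reads and 20 Input reads upward. Alternative scalings used TMM factors (edgeR 4.0.16) and size factors (DESeq2 1.42.0). No model was fitted, because each group has 1 library. The 45 genes, the gene lists and the rules were chosen with earlier results of these data known. Genes given full values were the 8 called with the largest ratio in each comparison of treatments by nearest name, and every gene called for the change. No value stands for a replicate, and depth limits genes with few reads.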

Additional observations from a re-analysis of the deposited data

Results flagged for a closer look

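KIF18A was picked out because its nearest-name sums moved in opposite directions in the 2 kinds of RNA. The log2 ratio of MPS1i over DMSO was -1.19 in Input and 0.52 in J2. With 1 library per group the difference was not tested across replicates. The J2 ratio was under 2-fold, and by gene body it was -0.28, so the opposite direction was seen with 1 of the 2 sums only.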

How the results depend on the processing

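No paired analysis was possible because each group holds 1 library. Calls by nearest name were recomputed under 14 alternatives, and the percent of all gene names called in the same direction stands in brackets. Members called lower in Input were 19 of 42, and 30 of 42 at a 1.5-fold threshold (20.5%) and 6 of 26 with each region counted at most once (9.01%). In J2 they were 15 of 41, and 24 of 41 with median-of-ratios size factors (23.8%), 24 of 41 at 1.5-fold (22.7%) and 3 of 31 with each region counted once (7.56%). In J2 1 member was higher at 1.5-fold (34.9%) and 1 without a count minimum (31.1%). For J2 over Input in MPS1i cells, 12 of 40 were higher and 5 lower. At 1.5-fold 19 of 40 were higher (31.1%). Counting each region once left 0 of 21 higher (2.32%) and 0 lower (1.28%). Without the most-read region 1 of 40 was lower (5.12%). In regions paired between the Input and J2 data, 5 of 19 were higher (14.3%) and 2 lower (16.7%). In DMSO cells 17 of 42 were higher at 1.5-fold (34.1%), and 0 of 32 higher (1.36%) and 0 lower (1.23%) with each region counted once. The change was called higher for 7 of 41, and for 13 of 41 at 1.5-fold (15.9%), 11 of 40 without repeats (11.6%), 11 of 41 without the most-read region (11.0%), 3 of 24 in paired regions (11.5%) and 1 of 31 with each region counted once (1.72%). It was called lower for 2 of 41 at 1.5-fold (14.2%) and 0 of 31 with each region counted once (1.24%).

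Alternatives that change only the count minimum or the fold threshold leave every ratio as it was. Thinning likewise left J2 over Input in MPS1i cells unchanged. No sign could differ in these values, which are part of the totals that follow, so the totals overstate how steady the signs were. Among single genes called by nearest name, 11 of 923 recomputed values had the other sign. Among genes not called, 178 of 1721 did, such as KIF18A and ASPM in J2 and CDC25C and ECT2 in Input, whose gene-body values stand above. With each region counted once, J2 ratios of MPS1i over DMSO were 0.0921 for AURKA and 0.0387 for TOP2A. J2 over Input in MPS1i cells became -0.0621 for NCAPG, 0.0118 for KIF20B and -0.0664 for ECT2, and in DMSO cells -0.181 for PBK, -0.0774 for CKAP5 and -0.142 for ECT2. Without its most-read region NEK2 had -0.215 in MPS1i cells. By gene body PBK had -0.021 in DMSO cells and PLK1 a change of -0.52. The cause was not tested in any of these.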
